A study of Rattus norvegicus with 15 samples.

Results

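Havcr1, Lcn2 and Spp1 encode 3 proteins measured as biomarkers of kidney injury, and their transcripts were followed on 15 arrays of rat kidney after cisplatin. Each gene was taken by its symbol in the platform's probe table, which gave 1 probe per gene, so that the members are 3 of 401 genes with a named probe. All 3 belong to the 1219 probes that the authors placed in their series table, and the sources used do not give the rule behind that table. The samples came from male Wistar/ST rats aged 8 weeks. The groups were isolated proximal tubules after saline, 2 mg/kg or 10 mg/kg cisplatin and whole kidneys after saline or 10 mg/kg cisplatin, with 3 arrays in each of 5 groups. Cisplatin or the same volume of saline was given by intraperitoneal injection, and the tubules were isolated with a microscope. How long after the injection the tissue was taken is not given in the sources used, and the labels leave unsaid whether 3 arrays mean 3 animals. The p-values thus cover the variation among arrays, which may be technical.

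The proximal tubule takes up cisplatin and is the nephron segment that the drug injures most. Havcr1 encodes KIM-1, a membrane glycoprotein that appears on injured proximal tubule cells, binds phosphatidylserine on dying cells and is shed into the urine. Lcn2 encodes NGAL, a small secreted lipocalin that binds iron-loaded siderophores, is made by neutrophils and by distal nephron segments, and is taken back from the filtrate by the megalin and cubilin receptors of the proximal tubule. Spp1 encodes osteopontin, a secreted, acidic phosphoprotein that binds integrins and CD44 and inhibits crystal growth in urine. In the healthy kidney osteopontin is made mainly by the loop of Henle and distal nephron, and after injury also by other tubule segments.

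The 3 genes lie on different chromosomes. Their promoters are shown because the genes were higher together at 10 mg/kg, and each run covers the 250 bases before the RefSeq start of the gene, read 5′ to 3′ on the gene's own strand in build GRCr8. The Havcr1 run is chr10:31629528-31629777 on the plus strand, the Lcn2 run chr3:36081781-36082030 on the minus strand and the Spp1 run chr14:5619805-5620054 on the minus strand. Capitals mark a match to any of 6 short motifs searched on both strands.
Havcr1: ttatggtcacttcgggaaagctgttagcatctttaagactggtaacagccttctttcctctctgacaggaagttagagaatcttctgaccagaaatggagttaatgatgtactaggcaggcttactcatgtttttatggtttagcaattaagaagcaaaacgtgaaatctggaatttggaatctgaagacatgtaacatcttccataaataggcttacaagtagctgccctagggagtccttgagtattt
Lcn2: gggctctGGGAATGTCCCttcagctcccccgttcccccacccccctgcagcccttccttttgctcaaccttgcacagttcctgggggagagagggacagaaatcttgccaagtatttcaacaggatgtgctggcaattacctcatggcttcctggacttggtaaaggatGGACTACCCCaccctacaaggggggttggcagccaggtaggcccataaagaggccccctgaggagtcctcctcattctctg
Spp1: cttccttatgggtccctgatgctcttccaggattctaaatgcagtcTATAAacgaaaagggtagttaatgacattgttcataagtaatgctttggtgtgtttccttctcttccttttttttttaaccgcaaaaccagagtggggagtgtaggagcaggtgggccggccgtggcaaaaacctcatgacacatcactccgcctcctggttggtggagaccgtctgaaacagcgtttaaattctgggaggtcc

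The motif letters for the box bound by the basal machinery were TATAA, and those for the box bound by NF-Y were CCAAT. The letters for AP-1 were TGANTCA, with N for any base. The NF-kB motif was read as 3 guanines, then any 5 bases, then 2 cytosines. The letters for STAT proteins were TTCNNNGAA, whereas those for C/EBP proteins were TTNCGNAA. The Havcr1 window held 0 matches. The Lcn2 window held 3 matches to the NF-kB letters, at -243 to -234, at -242 to -233 and at -81 to -72, where -1 is the base before the start, and the first and second of these overlap. At least 1 such match was present in 42.3% of 33469 rat promoter windows of the same length. The Spp1 window held 1 match to TATAA, at -204 to -200, a motif found in 24.0% of windows. No motif was found in all 3 windows. The windows differed in base composition, with a GC content of 39.2% for Havcr1, 57.2% for Lcn2 and 46.8% for Spp1.

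The arrays carry 1 colour, and each file lists 1 linear signal per probe with no background or detection value, so that folds are ratios of signals and a low signal is not known to lie above background. All 45 values of the 3 members were present. Array medians ran from 201 to 470, and groups were compared on the log2 scale after quantile normalization. Arrays correlated over probes at 0.857 to 0.962 within groups and 0.763 to 0.943 between groups, and no 2 arrays were identical. Saline whole kidney replicate 3 had the lowest mean correlation to the other arrays, 0.813. As a check of the preparation, 6 of 8 named markers of the S1 and S2 segments were higher in saline tubules than in saline whole kidneys and 3 of 4 S3 markers were lower, beside 2.12% of probes and 16.2% of named genes called higher and 1.46% and 7.98% called lower. A list headed brush border and endocytosis had 7 named genes, which include the metabolic enzyme genes Miox and Fbp1. Of these 7 genes 2 were called higher in saline tubules, 1 lower (Anpep, -1.75 ± 0.40) and 4 were not called. The water channel gene Aqp1 of the S1 and S2 list stood at -0.50 ± 0.40. The S1 and S2 marker that differed most is named next. Slc5a2, the S1 glucose transporter gene, lay at a signal percentile between 99.4 and 99.7 in saline tubules and between 37.5 and 62.3 in saline whole kidneys. The gap varied over the list, whose 8 named markers had a median log2 difference of 2.93. Slc4a4 lay between 98.4 and 99.4 in saline tubules and between 71.8 and 82.8 in saline whole kidneys. Slc34a1 lay between 99.97 and 99.99 in saline tubules and between 99.89 and 99.92 in saline whole kidneys. Percentiles so near the top show little of a difference, and the mean log2 signals of Slc34a1 were 19.69 and 18.41. In such bulk samples fewer cells of a type and less RNA per cell cannot be told apart.

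Havcr1 was the member with the largest difference in tubules. Its normalized log2 signal in tubules was 8.85, 9.52 and 7.97 after saline (8.78 ± 0.78, SD, n = 3), between the 47.3 and 68.4 percentile of all probes. It was 9.12, 9.34 and 9.64 at 2 mg/kg (9.37 ± 0.26). At 10 mg/kg it was 13.82, 13.34 and 14.004 (13.72 ± 0.34). The 2 mg/kg values fell among or just above the saline values, and the 10 mg/kg values stood apart from all 6 others by more than 3 units. The difference at 10 mg/kg was 4.94 ± 0.41 (SE) on the log2 scale, a 30.7-fold ratio with a 95% confidence interval of 16.8 to 56.3 (limma adjusted p = 1.61e-05). It was the seventh highest difference among 26601 probes. In the deposited signals the same rise ran from 215 to 1190 after saline to 5834 to 27328 at 10 mg/kg. As these saline signals may include background, the 30.7-fold ratio need not equal that of transcript amounts.

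In whole kidneys Havcr1 stood at 9.16, 9.02 and 8.40 after saline (8.86 ± 0.40) and at 12.85, 12.63 and 12.10 at 10 mg/kg (12.53 ± 0.39). After saline it lay between the 54.0 and 64.1 percentile, so possible background limits its ratio there as well. The groups did not overlap. The difference was 3.67 ± 0.41, 12.7-fold with an interval of 6.93 to 23.3 (limma adjusted p = 0.000229). Saline kidneys and saline tubules had overlapping Havcr1 levels, with a difference of -0.08 ± 0.41 for tubules minus kidneys (limma adjusted p = 0.955) whose sign depended on the scaling, and an interval from -0.95 to 0.79.

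Lcn2 started low in tubules. Its normalized log2 signal was 8.22, 8.08 and 6.77 after saline (7.69 ± 0.80, SD, n = 3), between the 19.8 and 51.3 percentile of all probes. It was 7.15, 7.71 and 7.64 at 2 mg/kg (7.50 ± 0.31). At 10 mg/kg it was 10.31, 10.06 and 11.79 (10.72 ± 0.94). The 2 mg/kg values lay within the saline range, and all 10 mg/kg values lay above them, replicate 3 well above the other two. The difference at 10 mg/kg was 3.03 ± 0.51 on the log2 scale, 8.16-fold with an interval of 3.84 to 17.3 (limma adjusted p = 0.00256). Because the saline signal may include background, this ratio need not equal the ratio of transcript amounts.

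In whole kidneys Lcn2 was 8.39, 9.05 and 9.63 after saline (9.02 ± 0.62) and 13.35, 12.87 and 13.32 at 10 mg/kg (13.18 ± 0.27). The 10 mg/kg kidneys were the highest of the 5 groups for this gene and the closest together. The difference was 4.16 ± 0.51, 17.8-fold with an interval of 8.39 to 37.9 (limma adjusted p = 0.000431).

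Spp1 was bright on every array. Its normalized log2 signal in tubules was 13.47, 14.23 and 13.28 after saline (13.66 ± 0.50, SD, n = 3), between the 94.7 and 97.1 percentile. It was 14.27, 13.51 and 13.99 at 2 mg/kg (13.92 ± 0.38). At 10 mg/kg it was 15.21, 17.33 and 17.86 (16.80 ± 1.41). The saline and 2 mg/kg groups overlapped almost fully, and at 10 mg/kg replicate 1 lay well below the other two while still above every saline and 2 mg/kg array. The difference was 3.14 ± 0.58, 8.81-fold with an interval of 3.71 to 20.9 (limma adjusted p = 0.00500). Without 10 mg/kg replicate 1 it was 15.5-fold (limma adjusted p = 0.000626). Without scaling between arrays it was 5.08-fold (limma adjusted p = 0.0262), and a fit of just these 6 arrays ended the call (limma adjusted p = 0.0533).

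The spread of Spp1 at 10 mg/kg depended on the scaling. The highest of the 3 tubule arrays was 2.40 times the lowest in the deposited signals, which ran from 72204 to 173382, and 6.30 times the lowest after quantile normalization. In whole kidneys Spp1 was 16.05, 14.88 and 15.91 after saline (15.61 ± 0.64) and 18.63, 18.11 and 17.94 at 10 mg/kg (18.22 ± 0.36), the last between the 99.86 and 99.92 percentile. The kidney groups did not overlap. The difference was 2.62 ± 0.58, 6.13-fold with an interval of 2.58 to 14.6 (limma adjusted p = 0.0154). Leaving out control kidney replicate 2 ended the call (2.25, limma adjusted p = 0.0663), as did leaving out treated kidney replicate 1 (2.40, limma adjusted p = 0.0571).

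**Figure D1:**
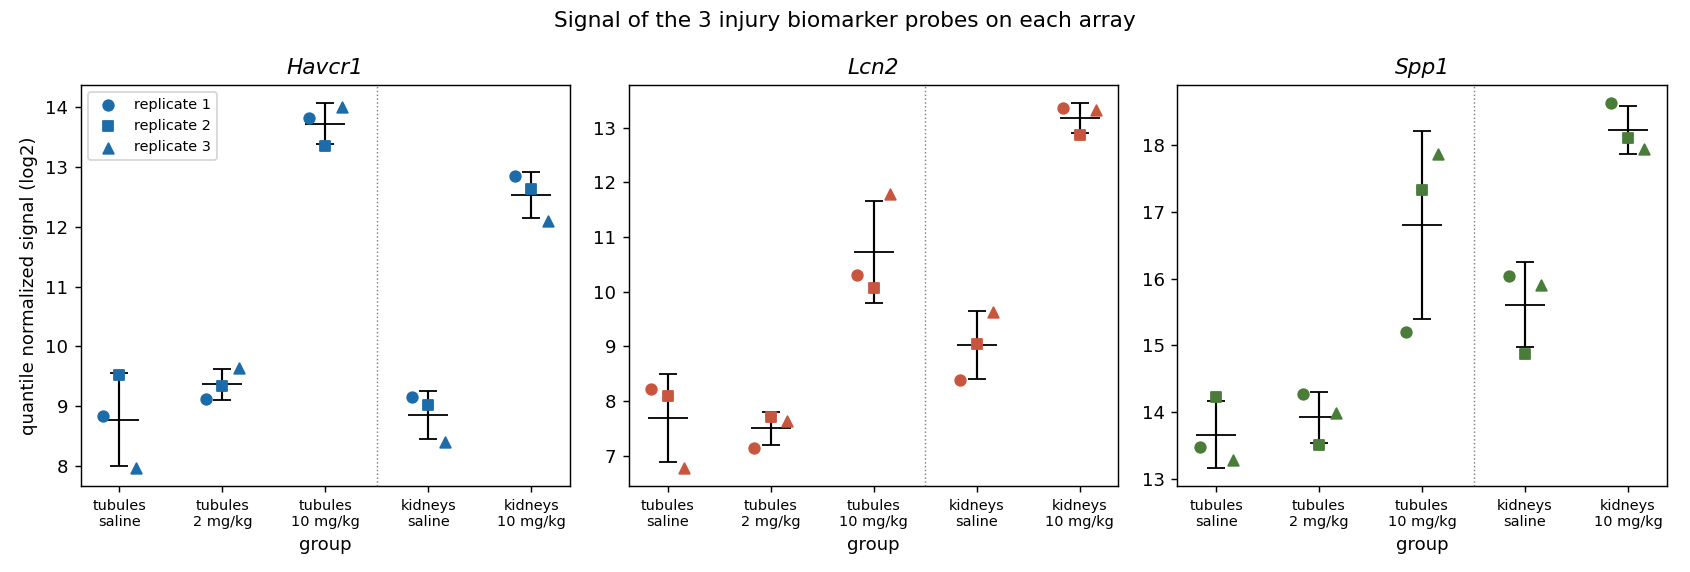
Each panel plots the quantile normalized log2 signal (y axis, own scale per panel) of 1 probe on the 15 arrays by group (x axis), with a marker shape per replicate number and black bars for the mean ± SD of 3 arrays. The 10 mg/kg arrays lie above the saline arrays of the same preparation for each gene, and for Spp1 tubule replicate 1 at 10 mg/kg (15.21) sits below replicates 2 and 3 (17.33 and 17.86).

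All 3 members were thus called higher at 10 mg/kg in tubules, where 2.48% of all probes and 10.2% of named genes were called higher. In whole kidneys all 3 were called higher as well, beside 2.93% of probes and 14% of named genes. Their groups did not overlap in either preparation, which was so in the upward direction for 11% of probes in tubules and 13.7% in whole kidneys. Saline tubule replicate 3 was the lowest of its group for all 3 genes, and without it the tubule differences were 4.54 for Havcr1, 2.57 for Lcn2 and 2.95 for Spp1, each still called (limma adjusted p = 8.9e-05, 0.0151 and 0.0284). Because the members were chosen with earlier results of these data known, the counts describe these arrays and are no independent evidence.

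At 2 mg/kg no member was called against saline tubules, and neither was any other probe in the limma fit, 0 of 26601 (0%). An unadjusted p under 0.05 was seen for 903 probes, fewer than this cut gives on average when nothing differs. Havcr1 differed by 0.59 ± 0.41 on the log2 scale, with an interval that reached at most a 2.75-fold rise. Lcn2 differed by -0.19 ± 0.51, with an upper bound of 1.86-fold, and Spp1 by 0.26 ± 0.58, with an upper bound of 2.85-fold. These bounds lie under the lower bounds of the 10 mg/kg ratios of each gene, 16.8-fold for Havcr1, 3.84-fold for Lcn2 and 3.71-fold for Spp1, and both sets of ratios share the saline arrays. Set directly against 2 mg/kg, the 10 mg/kg tubules were 20.5-fold higher for Havcr1, 9.34-fold for Lcn2 and 7.35-fold for Spp1 (limma adjusted p = 4.3e-05, 0.00159 and 0.00778). All 3 were called in this comparison, where 2.66% of probes and 10.5% of named genes were called higher. Spp1 was 12.9-fold higher without 10 mg/kg replicate 1 and 4.55-fold without scaling, and a fit of just these 6 arrays ended its call (limma adjusted p = 0.0622).

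The preparations were compared at the same treatment. Among saline samples the tubules had 2.51-fold less Lcn2 signal (-1.33 ± 0.51) and 3.86-fold less Spp1 signal (-1.95 ± 0.58) than whole kidneys, with no overlap between the groups, but neither passed the threshold (limma adjusted p = 0.193 and 0.0884). No overlap in that direction was seen for 11.3% of probes. Spp1 passed it with the series table values, where fewer probes were tested (-1.47, limma adjusted p = 0.0227), and without scaling it stood at -0.85 and Lcn2 at -0.61. At 10 mg/kg Lcn2 was called lower in tubules than in whole kidneys, by 2.46 ± 0.51 or 5.49-fold (limma adjusted p = 0.00656), beside 4.72% of probes called lower. This call was lost without scaling (-1.80, limma adjusted p = 0.116) and in a fit of just these 6 arrays (-2.46, limma adjusted p = 0.0524). Spp1 stood at -1.42 ± 0.58 and Havcr1 at 1.2 ± 0.41 in the same comparison, neither past the threshold (limma adjusted p = 0.15 and 0.0813). The Lcn2 and Spp1 groups did not overlap, which held in the lower direction for 13.8% of probes. Without 10 mg/kg tubule replicate 1 Spp1 stood at -0.63, and without scaling Havcr1 stood at 1.80. Havcr1 was the member with a higher signal in tubules than in kidneys at 10 mg/kg, and its groups did not overlap, which held in that direction for 14.1% of probes.

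The effect of 10 mg/kg itself was compared between the preparations by an interaction term. Havcr1 had a larger ratio in tubules by 1.28 ± 0.58 on the log2 scale, with an interval from 0.04 to 2.51 (limma adjusted p = 0.444). Lcn2 had a smaller one, by -1.13 ± 0.72, with an interval from -2.67 to 0.41 (limma adjusted p = 0.619). Spp1 differed by 0.52 ± 0.82, with an interval from -1.24 to 2.29 (limma adjusted p = 0.876), and it stood at -0.15 without scaling and at 1.32 without 10 mg/kg tubule replicate 1. No member passed the threshold, and 0.0376% of probes did. The Spp1 interval spans more than 2-fold in either direction.

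**Figure D2:**
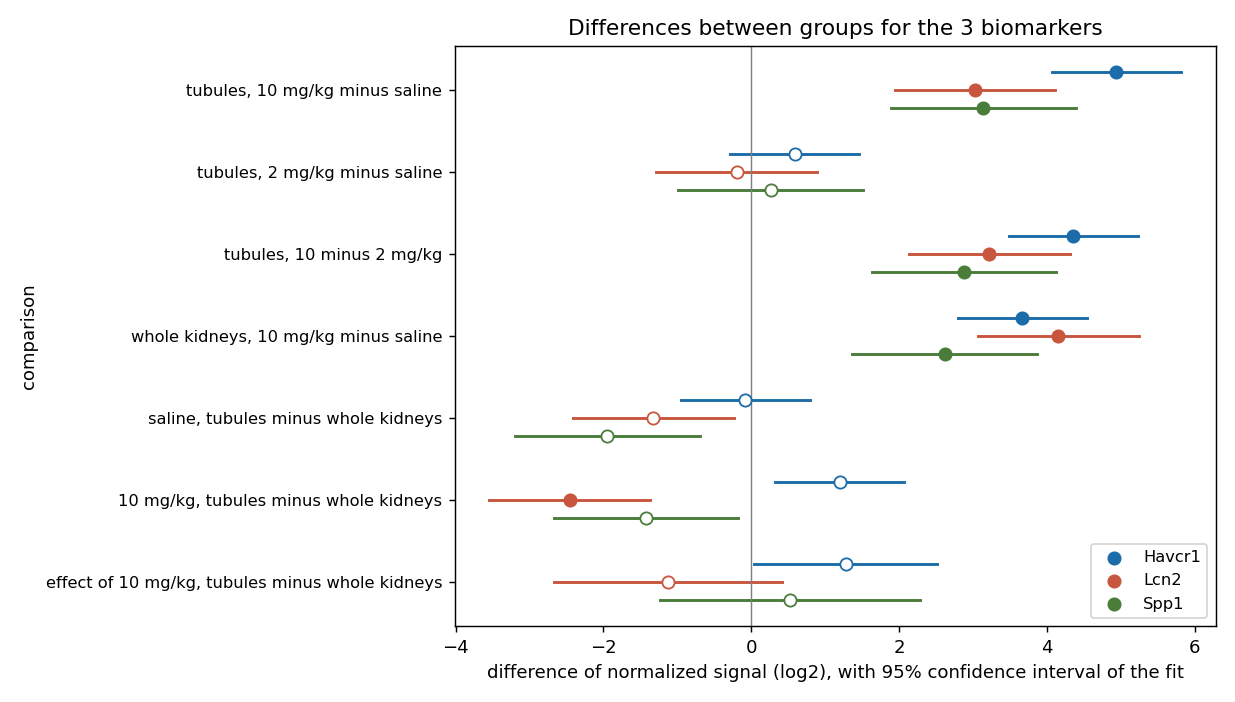
Points give the log2 difference of normalized signal (x axis) for each of 7 comparisons (y axis) and each gene by colour, and lines the 95% confidence interval of the fit. Filled points passed an adjusted p of 0.05, as all 3 genes did at 10 mg/kg in tubules and in whole kidneys, while at 2 mg/kg all 3 intervals span 0.

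Ordered by mean level, Havcr1 rose from saline tubules (8.78) and saline kidneys (8.86) through 2 mg/kg tubules (9.37) to kidneys (12.53) and tubules (13.72) at 10 mg/kg. The 3 lowest groups overlapped in a chain, and the 2 highest stood apart from them. For Lcn2 the order was 2 mg/kg tubules (7.50), saline tubules (7.69), saline kidneys (9.02), 10 mg/kg tubules (10.72) and 10 mg/kg kidneys (13.18), with overlap between the first pair of groups alone. For Spp1 it was saline tubules (13.66), 2 mg/kg tubules (13.92), saline kidneys (15.61), 10 mg/kg tubules (16.80) and 10 mg/kg kidneys (18.22). The Spp1 ranges of saline kidneys (14.88 to 16.05) and of 10 mg/kg tubules (15.21 to 17.86) overlapped, and 10 mg/kg tubule replicate 1 (15.21) lay below 2 of the 3 saline kidney arrays.

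The sizes of the changes were then compared within arrays, where a constant scaling factor cancels. In tubules the log2 ratio of the Havcr1 signal to the Lcn2 signal was higher at 10 mg/kg than after saline by 1.78, that is 3.43-fold, and the values of the groups did not overlap (2.14 to 3.64 against 0.75 to 1.54). The ratio of Havcr1 to Spp1 was likewise higher by 2.06 or 4.17-fold without overlap. The ratio of Lcn2 to Spp1 was higher by 0.28, with overlap. In whole kidneys the change of Havcr1 was smaller than that of Lcn2 by 0.57 on the log2 scale, with overlap, and larger than that of Spp1 by 0.76, also with overlap. There Lcn2 gained 1.34 on Spp1 or 2.52-fold, without overlap. The exact two-sided permutation test over arrays gave p = 0.1 for each of the 3 ratios without overlap, the smallest value that 3 against 3 arrays allow, and 0.7, 0.4 and 0.2 for Lcn2 to Spp1 in tubules, Havcr1 to Lcn2 in kidneys and Havcr1 to Spp1 in kidneys. Adjusted over the 6 ratios the smallest p was 0.2, and since no outcome of this test could pass the threshold, it bears on no ranking of the changes.

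The members varied to different degrees between replicates. The residual SD on the log2 scale was 0.47 for Havcr1, 0.64 for Lcn2 and 0.76 for Spp1, against a median of 0.67 over all probes. Over 15 arrays, whose group differences dominate, Lcn2 and Spp1 correlated at r = 0.92, Havcr1 and Lcn2 at 0.78 and Havcr1 and Spp1 at 0.76. With the group means removed these became 0.34, 0.40 and 0.20, and the deviations of a pair had the same sign on 8, 9 and 8 of 15 arrays. Within groups the 3 signals therefore moved together far less than between groups. At 10 mg/kg in tubules, for example, replicate 1 deviated from the group mean by -1.59 for Spp1 and by 0.10 for Havcr1, and replicate 3 lay above it for all 3 genes, by 0.28 for Havcr1, 1.07 for Lcn2 and 1.06 for Spp1. These correlations describe arrays that share a normalization.

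Beside the 3 members, 7 of the other 43 genes on a list of kidney injury biomarkers had a named probe. In tubules at 10 mg/kg 4 of them were called higher, 2 lower and 1 was not called, with a median difference of 3.30 on the log2 scale against 0.03 over all probes and -1.28 over named genes. In that comparison 2.48% of probes and 10.2% of named genes were called higher and 3.36% and 46.6% lower, so that the 2 of 7 called lower lie below the share of named genes. The 4 of smallest adjusted p were Anxa2 and S100a6, which encode partners in calcium-dependent membrane binding (3.30 ± 0.40 and 4.07 ± 0.51), the brush border peptidase gene Anpep (-2.75 ± 0.40) and the p21 gene Cdkn1a (3.97 ± 0.57). The enzyme genes on the list, Anpep and Gsta2, are markers because the proteins leak from damaged cells, and both transcripts fell. In whole kidneys 4 were called higher, 2 lower and 1 was not called, with a median of 2.32, beside 14% of named genes called higher and 46.4% lower. Anxa1 was called there (2.44 ± 0.42, limma adjusted p = 0.00351) and stood at 0.80 ± 0.42 in tubules, while Ccl2 was called in tubules and not in kidneys. At 2 mg/kg 0 of 7 were called in the limma fit, with a median of -0.17. The ratio of Havcr1 at 10 mg/kg in tubules exceeded that of the 7 others, and in whole kidneys the ratio of Lcn2 did, by value and without a test of the differences.

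**Figure D3:**
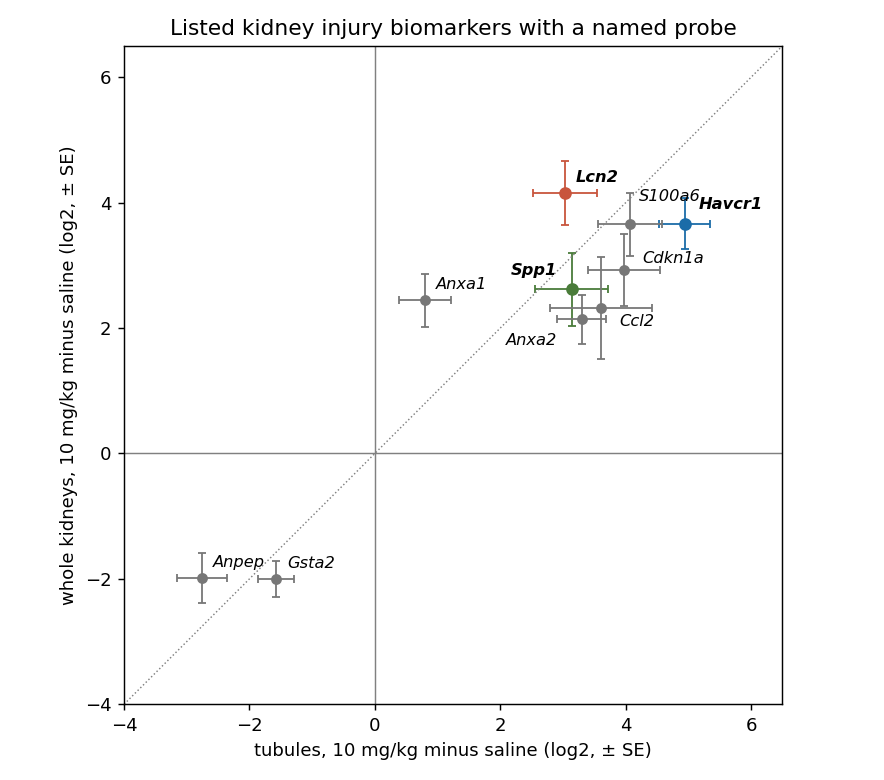
The 10 listed injury biomarkers with a named probe are plotted by their log2 difference at 10 mg/kg minus saline in tubules (x axis) and in whole kidneys (y axis), with bars for ± SE and a dotted line of equal change. Lcn2 (3.03 and 4.16) lies above that line and Havcr1 (4.94 and 3.67) below it, while Anpep and Gsta2 lie in the quadrant of falls.

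Other genes of the 3 pathways were covered thinly. For Lcn2, 5 other genes of the NF-kB and interleukin 1 response had a named probe out of 26 listed, and all 5 were called higher in tubules at 10 mg/kg, with a median of 3.04, beside 2.48% of probes and 10.2% of named genes. They were the death receptor gene Tnfrsf1a (1.84 ± 0.28), the NF-kB subunit gene Nfkb2 (1.83 ± 0.29) and the chemokine genes Ccl20 (4.63 ± 0.59), Cxcl2 (3.04 ± 0.64) and Ccl2 (3.61 ± 0.81). In whole kidneys 4 of 5 were called higher, beside 2.93% of probes and 14% of named genes, with a median of 2.32, and Ccl2 was not (2.32 ± 0.81, limma adjusted p = 0.113). At 2 mg/kg 0 of 5 were called in the limma fit. Because the lists were chosen with earlier results of these data known, the counts of this list and of the injury biomarker list are no independent evidence.

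Of the genes for Lcn2 uptake and iron handling, Cubn and Tf had a named probe out of 19 listed. Cubn, whose product cubilin retrieves filtered proteins including NGAL, fell by 2.58 in tubules and fell by 3.93 in whole kidneys on the log2 scale (limma adjusted p = 0.00145 and 0.000148). Cubn fell in the samples in which Lcn2 rose, where 46.6% of named genes in tubules and 46.4% in whole kidneys were called lower. Among all probes these shares were 3.36% and 3.53%, and a link of Cubn to Lcn2 was not tested. The transferrin gene Tf had 0.45 ± 0.46 in tubules (limma adjusted p = 0.743) and fell by 1.84 in whole kidneys (limma adjusted p = 0.0275).

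Of the genes for osteopontin receptors and processing, Fam20c, Plau and Enpp1 had a named probe out of 27 listed, and none encodes a receptor of osteopontin. Fam20c, the kinase that phosphorylates secreted proteins such as osteopontin, fell by 1.58 in tubules and fell by 1.85 in whole kidneys (limma adjusted p = 0.0185 and 0.00762). Enpp1, which makes the mineralization inhibitor pyrophosphate, fell by 1.65 in whole kidneys (limma adjusted p = 0.00896) and had -0.79 ± 0.33 in tubules. The urokinase gene Plau fell by 1.76 in tubules (limma adjusted p = 0.011) and had -1.24 ± 0.37 in kidneys. In each preparation 2 of these 3 genes were called lower. Beside them, 46.6% of named genes and 3.36% of probes were called lower in tubules, and 46.4% and 3.53% in whole kidneys. With 3 genes, such counts do not set the list apart from other named genes. Of the genes that bind or clear dying cells listed for Havcr1, the oxidized lipid receptor gene Olr1 alone had a named probe. Olr1 rose by 4.61 ± 0.53 in tubules (limma adjusted p = 0.000231) and had 1.44 ± 0.53 in kidneys (limma adjusted p = 0.133). In tubules 10.2% of named genes and 2.48% of probes were called higher.

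Among 397 other named genes with values on all arrays, those with the pattern most like Havcr1 over the 15 arrays were Ces2c (r = 0.97), Dynlt1 (r = 0.97), Klf6 (r = 0.97), Irf1 (r = 0.96) and Dnajc5 (r = 0.96). They encode a carboxylesterase, a dynein light chain, a zinc finger transcription factor, an interferon regulatory factor and a co-chaperone. Their differences at 10 mg/kg ran from 1.92 to 3.49 in tubules and from 1.88 to 2.14 in whole kidneys on the log2 scale, which the choice by likeness makes high and which is given as a description. Nearest to Lcn2 were S100a6 (r = 0.96), the stress response gene Ier3 (r = 0.95), the calcium channel gene Trpv6 (r = 0.95), the growth factor gene Hbegf (r = 0.94) and Anxa2 (r = 0.93). Ier3 stood at 1.26 ± 0.37 in tubules, which was not called (limma adjusted p = 0.0631), and at 2.67 ± 0.37 in whole kidneys, which was. Trpv6 stood at 1.64 ± 0.34 and 3.33 ± 0.34, both called. Nearest to Spp1 were S100a6 (r = 0.96), Anxa2 (r = 0.94), S100a10 (r = 0.92), Lcn2 (r = 0.92) and Rasl11b (r = 0.92). S100a6 and Anxa2 stood among the 5 nearest of both Lcn2 and Spp1 and neither stood among those of Havcr1, to which Lcn2 ranked 30 and Spp1 ranked 31 in likeness. The correlations rest mostly on the differences between groups.

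Markers of other cells that could carry these transcripts were scarce among the named probes. Of 9 marker lists 5 had no named gene: thick limb and distal tubule, collecting duct, neutrophil, glomerulus with endothelium and stroma, and erythroid cells. Of 14 leukocyte markers C1qa and C1qc had one, and neither was called at 10 mg/kg in tubules (1.11 ± 0.40 and 0.94 ± 0.43) or in whole kidneys (1.29 ± 0.40 and 1.5 ± 0.43). Their summed normalized signal ran from 4043 to 9330 in saline tubules and from 10154 to 21614 at 10 mg/kg. In whole kidneys it ran from 3481 to 5226 after saline and from 9985 to 14639 at 10 mg/kg. No overlap in the upward direction was seen for 11% of probes in tubules and 13.7% in whole kidneys. By signal percentile in tubules C1qc overlapped (78.0 to 89.3 after saline, 88.2 to 93.1 at 10 mg/kg). C1qa did not (85.0 to 90.6 against 92.3 to 96.1). In whole kidneys neither gene overlapped by percentile between saline and 10 mg/kg. C1qa ran from 83.6 to 88.1 against 91.8 to 94.5, and C1qc from 75.5 to 82.2 against 88.8 to 90.6. Neither probe was listed at 0. The part of leukocytes in the Lcn2 and Spp1 results was not tested, and neither was that of distal segments.

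Named markers of the proximal tubule were mostly called lower in tubules. At 10 mg/kg in tubules 6 of 8 S1 and S2 markers and 3 of 4 S3 markers were called lower. So were 7 of 7 genes on the brush border and endocytosis list, Miox and Fbp1 included, beside 3.36% of all probes and 46.6% of named genes. In whole kidneys 3 of 8, 4 of 4 and 6 of 7 were called lower, beside 3.53% of probes and 46.4% of named genes. The share of S1 and S2 markers called lower there was thus below that of named genes, and Slc5a2 and the bicarbonate cotransporter gene Slc4a4 had differences above 0 in whole kidneys (1.12 ± 0.69 and 0.53 ± 0.42), neither called. The Slc5a2 value is uncertain, as its signal in 10 mg/kg whole kidneys ranged from the 30.9 to the 81.2 percentile. The summed signal of the 7 genes on the brush border and endocytosis list ran from 632456 to 734985 in saline tubules and from 125850 to 162321 at 10 mg/kg. The brightest of them in saline tubules were Pdzk1 and the enzyme genes Miox and Fbp1 (mean log2 17.86, 17.75 and 17.15), so these weigh most in the sum. At 2 mg/kg it ran from 709828 to 786347, and none of the 19 markers was called there in the limma fit. The tubule arrays with high Havcr1 were therefore those with a low proximal marker sum, and the part of a changed cell makeup in the member results was not tested.

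**Figure D4:**
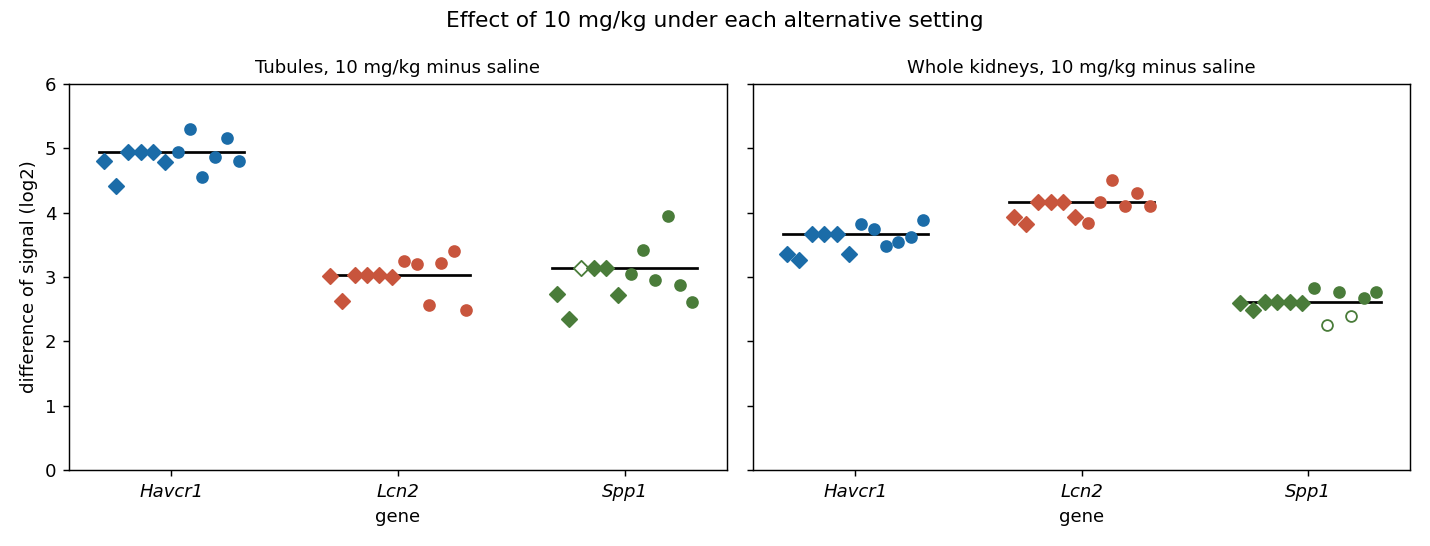
The log2 difference at 10 mg/kg minus saline (y axis) is given for each gene (x axis) in both preparations, with a black line for the value reported, diamonds for another scaling, fit or probe set and circles for leaving out 1 array, and the position across a gene has no meaning. Open symbols did not pass an adjusted p of 0.05, which occurred for Spp1 alone, and all values lie between 2.25 and 5.29.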

How the data were processed

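Total RNA was labelled with digoxigenin as cRNA and hybridised to the Rat Genome Survey array of Applied Biosystems, per the labels' protocols. The deposited array files hold 1 intensity per probe, with medians that differ between arrays, and no header or label gives a background correction. The authors' deposited series table holds a ratio: each signal divided by 1 constant per array, in all 15 columns within a relative tolerance of 0.000001. The log2 signals of all arrays were brought to 1 distribution by quantile normalization in limma 3.58.1 (R 4.3.3). Probes with at least 2 values per group were tested (26601 of 26857) with lmFit over all 15 arrays and eBayes, 7 two-sided contrasts, p-values adjusted by Benjamini-Hochberg across the tested probes, threshold 0.05. No background correction or detection filter was possible. Symbols came from the platform table (401 probes with 1 symbol, all matched to RefSeq GRCr8), and promoters from RefSeq. The members, lists and tests were chosen with earlier results of these data known. Named were the members, the 5 genes most like each, up to 4 genes per list by adjusted p, and marker genes. Fam20c, Plau, Enpp1, Tf, Cubn, Olr1 and Ccl2 complete lists of 5 or fewer, and Anxa1 and Gsta2 were named after their values were seen.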

Additional observations from a re-analysis of the deposited data

How the results depend on the processing

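Differences of the 3 genes in 7 comparisons were recomputed 270 times with median centring, no scaling, only the arrays compared, the replicate block, dim probes left out, the series table values, or each array left out in turn: 252 kept direction and side of the threshold, 6 lost a call, 3 gained one and 9 changed sign, where the cause was not tested beyond what the setting itself removes. In fits of just the groups compared, the Spp1 call at 10 mg/kg in tubules ended against saline (3.14) and against 2 mg/kg (2.88). Leaving out 1 array gave 2.25 to 2.83 for Spp1 in kidneys. Lcn2 at 10 mg/kg, tubules minus kidneys, lost its call without scaling (-1.80) and with only the arrays compared (-2.46). With the series table values, where 1219 probes were tested, Havcr1 (1.45) and Spp1 (-1.34) gained a call at 10 mg/kg, tubules minus kidneys, and Spp1 between saline preparations (-1.47). Adjustment within that set, rich in called probes, is more lenient, so the 3 gained calls are no independent support. Signs turned among values that were never called: Havcr1 between saline preparations with median centring (0.0150), no scaling (0.65), the series table values (0.0321) and leaving out 1 array (-0.45 to 0.33), Lcn2 at 2 mg/kg leaving out 1 array (-0.65 to 0.0687), and the Spp1 difference of effects without scaling (-0.15) and leaving out 1 array (-0.0100 to 1.32).

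Without scaling the median of all probes moved to -0.32 in tubules at 10 mg/kg and to 0.61 between saline preparations. The probes called in tubules numbered 1553, and 917 without scaling (14.1% higher against 42.4%), 643 with only the arrays compared, 967 with the series table values and 953 without saline tubule replicate 3. In kidneys they numbered 1717, and 675 with median centring, 356 without scaling (30.1% higher against 45.4%), 519 with only the arrays compared, 749 with the series table values and 1135 without saline whole kidney replicate 2. The split was 31.6% higher in tubules with median centring. With the replicate block the counts were 1257 and 1413 and no call of the 3 genes changed, Spp1 in kidneys having limma adjusted p = 0.0314. The replicate numbers share a number and no more: deviations correlated at a mean of -0.0035 over 30 pairs with the same number, and 3 of 15 arrays correlated best with their own number. Signal over background could not be assessed, which limits the folds of Lcn2 and of Havcr1, both with low or middling saline signals.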
